A study of Mus musculus with 10 samples.

Results

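The subcortical maternal complex is a protein assembly under the plasma membrane of the mouse egg, and 6 genes that encode it were followed here: Nlrp5, Ooep, Tle6, Khdc3, Padi6 and Zbed3. They were taken by name, by a rule that uses no measured value, although they were proposed with earlier results of these data known, and all 6 were found among the 35501 genes of the deposited tables. The tables came from metaphase II oocytes of ICR mice aged 6 to 8 weeks. Germinal vesicle oocytes, the immature stage, were matured in culture for 16 h at 37 °C in 5% CO2, and each library was amplified by Smart-seq2 from 1 oocyte. The TubA group held 5 libraries of oocytes exposed to the agent at 0.1 µg/mL for 16 h. The control group held 5 libraries labelled as control, and the labels name no vehicle for it. The labels give TubA by this name alone, which is a common short form of tubastatin A, known to inhibit HDAC6, a deacetylase of tubulin. No animal is named for any library, so each n is a number of oocyte libraries, and a p-value reflects the spread among them alone, part of which may be technical.

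The proteins of this complex are stored by growing oocytes, and most are known from maternal effect mutants in mice, whose embryos stop at early cleavage. NLRP5 (MATER), a leucine-rich repeat protein of the NLR family, TLE6, a relative of the Groucho corepressors, and OOEP (FLOPED), a small protein with a KH-like domain, form its core. KHDC3 (FILIA) is a second KH-like protein attached to that core and is linked to euploidy in cleavage embryos. PADI6 belongs to the peptidylarginine deiminase family and is needed for the cytoplasmic lattices, fibrous structures of the egg. ZBED3, a BED-type zinc finger protein, is known for a part in spindle positioning in early embryos. During maturation the oocyte is largely silent in transcription, and messenger RNAs are polyadenylated, stored or cleared instead, partly through cytoplasmic polyadenylation elements near their 3′ ends.

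The 3′ ends of 5 of the 6 genes are shown, because such elements and the poly(A) signal lie there. Each line gives 30 bases of the most abundant transcript, sense strand, from the GENCODE M21 transcript sequences. Capitals mark the poly(A) signal AATAAA and the cytoplasmic polyadenylation elements TTTTAT and TTTTAAT.
Nlrp5: tagcaagaatgaAATAAAcacagcatttag
Tle6: cgagttgcgtgtAATAAAacaattgaaatg
Khdc3: ttaaagtattctAATAAAaaaaaaattgca
Padi6: tgccatagagccAATAAAgcatggtattct
Zbed3: ttttttttTTTTAATAAAcTTTTATttatc
The windows lie at chr7:23441887-23441916 (+), chr10:81590907-81590936 (-), chr9:73104409-73104438 (+), chr4:140727361-140727390 (-) and chr13:95337809-95337838 (+) of GRCm38, in the order printed, each in the last exon. Zbed3 was the 1 member of 6 with either element in the last 100 bases: it held 1 TTTTAAT, overlapping its AATAAA, and 1 TTTTAT after it. Of 9295 protein-coding transcripts with a 3′ UTR at least that long, 20.5% held TTTTAT or TTTTAAT there and 65.4% held AATAAA, so 1 member of 6 is near the background. The annotated end of Ooep held no AATAAA, so none of it is shown. The 3′ UTR of Khdc3-204 is annotated at 75 bases, so its 100 bases reached into the coding sequence. A match of letters is a description of the sequence and not a measured binding site.

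All 6 genes were abundant in every library, in TPM, a unit that is corrected for transcript length, sums to 1000000 in each library and carries no sequencing depth. Zbed3 was the second most abundant gene of all by its mean over the 10 libraries. Khdc3 ranked 38, Tle6 47, Padi6 78, Nlrp5 103 and Ooep 486. Zbed3 lay above Khdc3 in 10 of 10 libraries, and Nlrp5 lay above Ooep in 10 of 10. The order between these was not fixed: Khdc3 exceeded Tle6 in 5 of 10 libraries, Tle6 exceeded Padi6 in 8, and Padi6 exceeded Nlrp5 in 3. In sum, the 6 genes held 23658, 24973, 24913, 36016 and 27572 TPM in the TubA libraries, against 28126, 26182, 23775, 26502 and 25779.9 TPM in the controls. Within that sum the share of Zbed3 ran between 38.3% in TubA replicate 4 and 92.5% in control replicate 1.

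A pair of libraries stood apart for these genes, and they belong to opposite groups. Control replicate 1 had the lowest value of all 10 for Nlrp5, Tle6, Khdc3 and Padi6 and the highest for Zbed3, and it also had the fewest genes at 1 TPM or more, 10521. TubA replicate 4 had the highest value for Nlrp5, Ooep, Tle6, Khdc3 and Padi6 and the most such genes, 11698. Apart from this, the libraries were clustered into sets on the genes averaging 1 TPM or more, with the 6 members left out. Set A held TubA replicates 1 and 2 with control replicates 1 to 3. Set B held TubA replicates 3 to 5 with control replicates 4 and 5. These sets are not labels of the submitters and were found from other genes of the same libraries. The ranges of each of the 6 genes in set A and in set B overlapped. The libraries carried oocyte markers throughout: Zp1, Zp2, Zp3, Gdf9, Bmp15, Mos, H1foo and Oosp1 summed to 28430 to 37258 TPM with TubA and 26734 to 37709 TPM in control. Of 9 cumulus and granulosa markers, Amh and Foxl2 were listed at 0 in every library, and the 9 summed to 12.5 to 19.9 TPM with TubA and 11.1 to 17.3 TPM in control, mostly Cyp19a1. Of 7 theca and stroma markers, the sum was 1.90 to 12.9 TPM with TubA and 2.32 to 17.2 TPM in control, mostly Dcn. Of 8 blood and endothelium markers, Hbb-bt was listed at 0 throughout, and the sum was 22.2 to 40.8 TPM with TubA and 22.7 to 60.1 TPM in control. Pecam1 was the largest of them, with means of 25.7 TPM with TubA and 26.4 TPM in control. Control replicate 5 also had 14.9 TPM of Hba-a1 and 10.4 TPM of Hba-a2.

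No member differed between TubA and control oocytes by the limma test across all genes. The fit on log2(TPM + 1) called 1 of 11664 genes at an adjusted p under 0.05, which is 0.00857%, and none of the 6 members (293 genes had an unadjusted p under 0.05, none of them a member). The groups overlapped for every member, while 0.454% of all genes tested had no overlap. The adjusted p was 0.9999 for each of the 6. The intervals below are wide for the genes with the largest spread, so they leave room for differences of either sign.

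**Figure D1:**
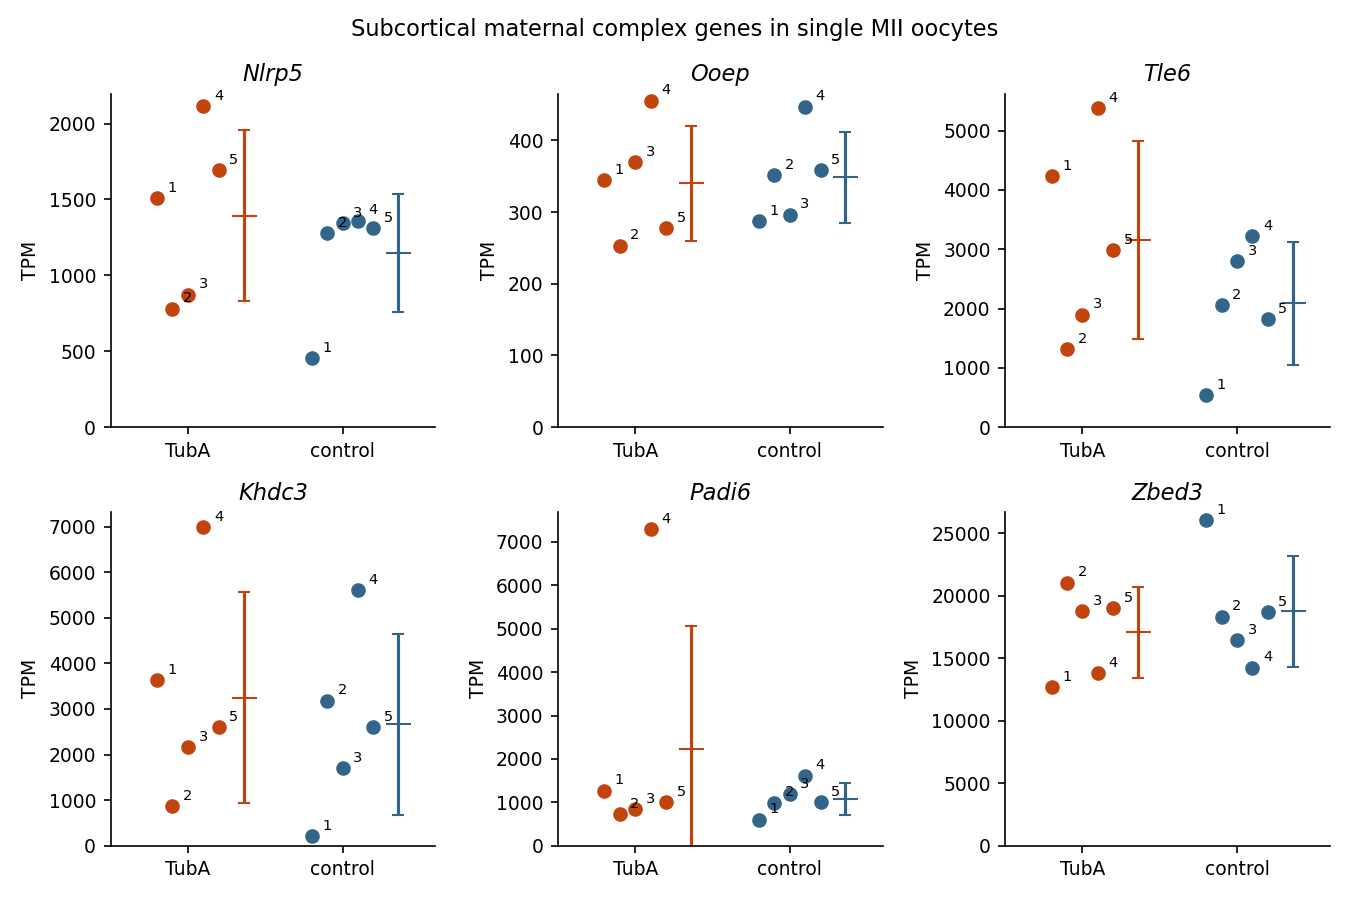
Abundance in TPM of each gene in each library, TubA on the left and control on the right of every panel, with the replicate number beside each point and the mean ± SD beside each group (n = 5 each, and the lower bar of Padi6 with TubA is cut at 0). The groups overlap in every panel, and control replicate 1 and TubA replicate 4 sit at opposite ends for Nlrp5, Tle6, Khdc3 and Padi6.

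Nlrp5 (chr7:23385889-23441922, plus strand, GRCm38), the core protein with leucine-rich repeats, had 1507, 780.4, 873, 2115 and 1693 TPM with TubA, against 457, 1278, 1342, 1361 and 1309.5 TPM in control. The TubA values lay on both sides of 4 close control values, and control replicate 1 lay below every other library. The mean was 1394 ± 564 TPM with TubA and 1149 ± 389 TPM in control (SD, n = 5 each), a log2 difference of 0.28 with a standard error of 0.35 and a 95% interval of -0.49 to 1.05 (limma). Without control replicate 1 the difference was -0.03.

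Tle6 (chr10:81590904-81601073, minus strand), the Groucho relative of the core, had 4233, 1309.5, 1895, 5382 and 2981 TPM with TubA, against 541, 2054, 2798, 3224 and 1817 TPM in control. TubA replicates 1 and 4 lay above all controls, and the other 3 lay among them. The mean was 3160.0 ± 1669 TPM with TubA and 2087 ± 1032 TPM in control, the largest difference of the 6 at 0.64 (SE 0.49, 95% interval -0.42 to 1.70). With control replicate 1 and TubA replicate 4 both left out it was -0.03.

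Ooep (chr9:78376109-78378725, minus strand), the third core gene, had 345, 253, 370.2, 455 and 277 TPM with TubA, against 288, 352, 297, 447 and 358 TPM in control. Over all libraries it was the least variable of the 6, with a highest value 1.80 times the lowest. The mean was 340.3 ± 80.2 TPM with TubA and 348 ± 63.7 TPM in control, a log2 difference of -0.05 (SE 0.19, 95% interval -0.47 to 0.37). Its sign turned positive without TubA replicate 2 (0.05), TubA replicate 5 (0.02) or control replicate 4 (0.05).

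Khdc3 (chr9:73101836-73104438, plus strand), encoding the attached KH-like protein, had 3638, 869.9, 2168, 6985 and 2595 TPM with TubA, against 214, 3184, 1696, 5607 and 2599 TPM in control. The groups overlapped widely: the values spanned 8.03-fold within TubA and 26.2-fold within control, and 32.7-fold between control replicate 1 and TubA replicate 4. The mean was 3251 ± 2311 TPM with TubA and 2660.1 ± 1992 TPM in control, a log2 difference of 0.58 (SE 0.77, 95% interval -1.10 to 2.25). Without control replicate 1 it was -0.18, and without both control replicate 1 and TubA replicate 4 it was -0.54.

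Padi6 (chr4:140727355-140742643, minus strand), the lattice gene, had 1271, 719, 835, 7295 and 1007 TPM with TubA, against 601, 992, 1190.2, 1616 and 998 TPM in control. One library, TubA replicate 4, held 7295 TPM, and the other 9 lay between 601 and 1616 TPM. The mean was 2225 ± 2842 TPM with TubA and 1079.6 ± 369 TPM in control, a log2 difference of 0.46 (SE 0.54, 95% interval -0.71 to 1.63). Without TubA replicate 4 the difference was -0.13, so its sign rested on that library.

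Zbed3 (chr13:95323612-95337841, plus strand), the zinc finger gene, had 12665, 21041, 18772, 13784 and 19019 TPM with TubA, against 26026, 18321, 16452, 14246 and 18698 TPM in control. The lowest value was TubA replicate 1 and the highest control replicate 1, with the others mixed between. The mean was 17056 ± 3629 TPM with TubA and 18748 ± 4436 TPM in control, a log2 difference of -0.13 (SE 0.19, 95% interval -0.54 to 0.28).

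**Figure D2:**
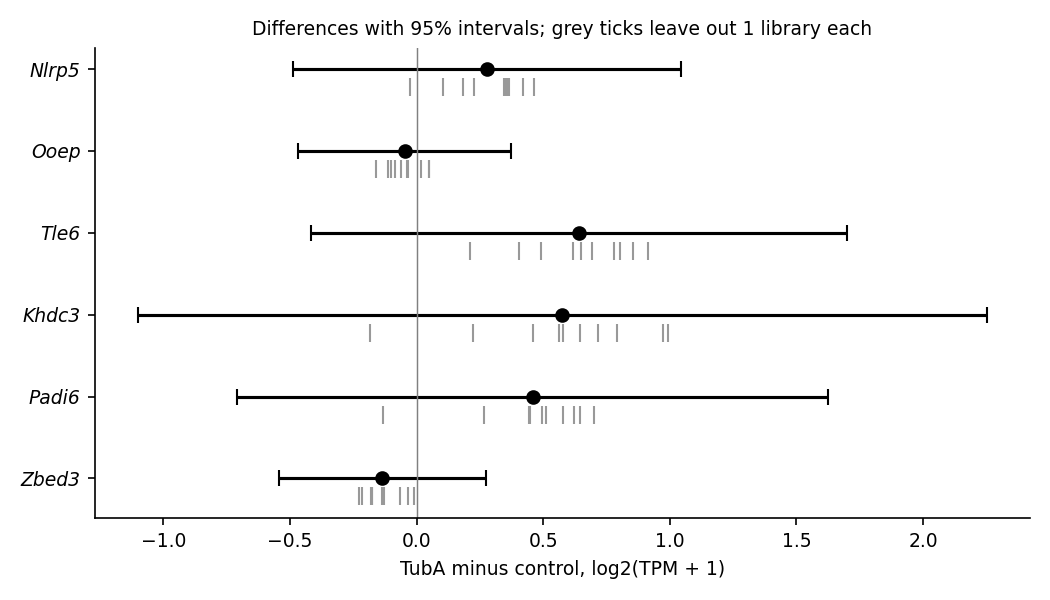
Difference of TubA from control in log2(TPM + 1) for each gene, with the limma estimate (black point), its 95% interval (bar) and the estimates with 1 library left out in turn (grey ticks). Every interval spans 0, and the estimates run between -0.13 for Zbed3 and 0.64 for Tle6.

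Within the library sets the differences stayed short of the threshold as well. In set A, with 2 TubA and 3 control libraries, the log2 differences were 0.23 for Nlrp5, -0.07 for Ooep, 0.69 for Tle6, 0.76 for Khdc3, 0.10 for Padi6 and -0.28 for Zbed3. In set B, with 3 TubA and 2 control libraries, they were 0.13 for Nlrp5, -0.15 for Ooep, 0.37 for Tle6, -0.17 for Khdc3, 0.53 for Padi6 and 0.06 for Zbed3. Khdc3 and Zbed3 thus had opposite signs in the sets, and whether the sets differ in these differences was not tested.

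The spread between oocytes differed among the 6 genes, and for Padi6 it rested on 1 library. Over all 10 libraries the coefficient of variation was 121% for Padi6, 69.6% for Khdc3, 54.3% for Tle6 and 37.3% for Nlrp5, beside 21.9% for Zbed3 and 19.9% for Ooep. The median was 22.5% over the 137 genes averaging 1000 TPM or more. Among those genes, ordered from the largest coefficient down, Padi6 ranked 1, Khdc3 6, Tle6 13, Nlrp5 28 and Zbed3 73. Ooep, at a lower mean, was outside that comparison. Without TubA replicate 4 the coefficient of Padi6 was 29.8% and its rank 37, beside a median of 19.8%, while Khdc3 (63.2%) ranked 6, Tle6 (47.8%) 14 and Nlrp5 (33.3%) 31. Without both TubA replicate 4 and control replicate 1 it was 50.9% for Khdc3, 37.3% for Tle6, 25.9% for Padi6 and 23.99% for Nlrp5. These settings were chosen after seeing the data. Within groups, Padi6 varied by 128% with TubA and 34.1% in control, and Khdc3 by 71.1% with TubA and 74.9% in control. After scaling the libraries by median of ratios, the coefficient over all 10 libraries rose to 30.1% for Zbed3. It fell to 114% for Padi6, 66.6% for Khdc3, 49.7% for Tle6, 33.0% for Nlrp5 and 18.6% for Ooep.

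Across oocytes Nlrp5, Tle6, Khdc3 and Padi6 tended to be high in the same libraries, and Zbed3 tended to be low there. TubA replicate 5 departed from this: counted from the lowest library, Nlrp5 ranked 9, Khdc3 5, Padi6 6 and Zbed3 8. On log2(TPM + 1) over 10 libraries, Pearson's r was 0.95 for Nlrp5 with Tle6 (Spearman's rho 0.93), 0.92 for Tle6 with Khdc3 (rho 0.83) and 0.91 for Nlrp5 with Khdc3 (rho 0.76). Padi6 had an r of 0.75 with Tle6 (rho 0.94), 0.72 with Nlrp5 (rho 0.92) and 0.70 with Khdc3 (rho 0.83). Ooep followed less closely, with r of 0.73 with Khdc3, 0.71 with Padi6, 0.56 with Tle6 and 0.49 with Nlrp5 (rho 0.75, 0.56, 0.49 and 0.37). Zbed3 had a negative r with all 5: -0.93 with Tle6 (rho -0.85), -0.86 with Khdc3 (rho -0.83), -0.81 with Nlrp5 (rho -0.71), -0.70 with Padi6 (rho -0.88) and -0.65 with Ooep (rho -0.62). These are descriptions with no test, and the values of a library share 1 total.

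**Figure D3:**
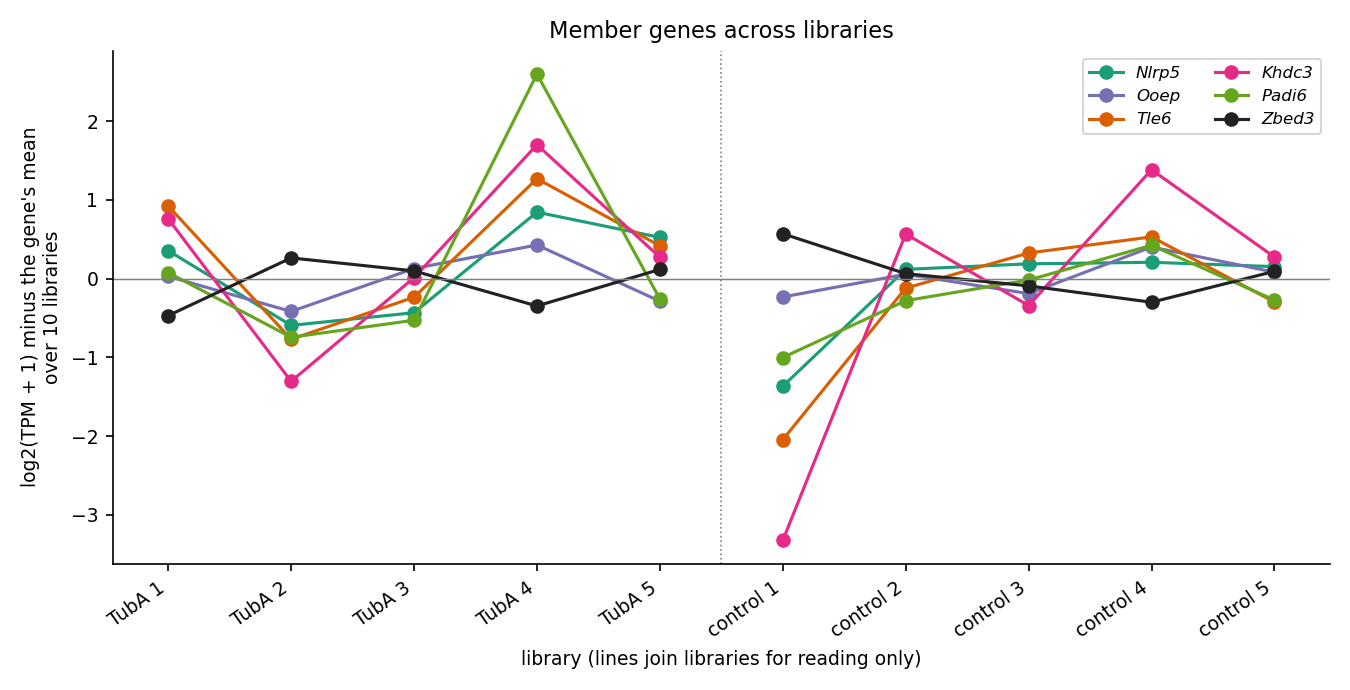
Each gene's log2(TPM + 1) minus its own mean over the 10 libraries, TubA libraries on the left of the dotted line and control libraries on the right, with lines drawn for reading only. Zbed3 lies above 0 in control replicate 1 and TubA replicate 2, where Nlrp5, Tle6, Khdc3 and Padi6 lie below it, and below 0 in TubA replicate 4.

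Some coefficients were smaller and others larger without the libraries at the ends. With control replicate 1 and TubA replicate 4 left out, r over 8 libraries was 0.80 for Nlrp5 with Tle6, 0.70 for Tle6 with Khdc3, 0.66 for Nlrp5 with Khdc3 and -0.87 for Tle6 with Zbed3. For Nlrp5 with Ooep it was 0.19. It was larger in size for 4 pairs: 0.83 for Tle6 with Padi6, 0.81 for Khdc3 with Padi6, 0.83 for Ooep with Khdc3 and -0.85 for Padi6 with Zbed3. Leaving out the 2 libraries farthest from the median of the first gene gave 0.80 for Nlrp5 with Tle6, 0.70 for Tle6 with Khdc3, 0.59 for Nlrp5 with Khdc3, 0.12 for Nlrp5 with Ooep and -0.87 for Tle6 with Zbed3. All 15 pairs kept the sign of r within set A and within set B, at 5 libraries each, but not its size. For Tle6 with Zbed3 r was -0.98 in set A and -0.81 in set B, and for Nlrp5 with Ooep 0.62 in set A and 0.10 in set B. After scaling the libraries by median of ratios all 15 signs were also kept, with 0.92 for Tle6 with Khdc3, -0.91 for Tle6 with Zbed3 and -0.20 for Ooep with Zbed3. The number of genes at 1 TPM or more in a library moved with the same genes: r was 0.87 with Nlrp5, 0.83 with Tle6, 0.79 with Khdc3, 0.69 with Padi6, 0.56 with Ooep and -0.81 with Zbed3. Without control replicate 1 and TubA replicate 4 it was 0.73 with Nlrp5, 0.63 with Tle6 and 0.55 with Khdc3. In that setting it was 0.76 with Padi6, 0.36 with Ooep and -0.63 with Zbed3. The part of this number of genes in the covariation was not tested.

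**Figure D4:**
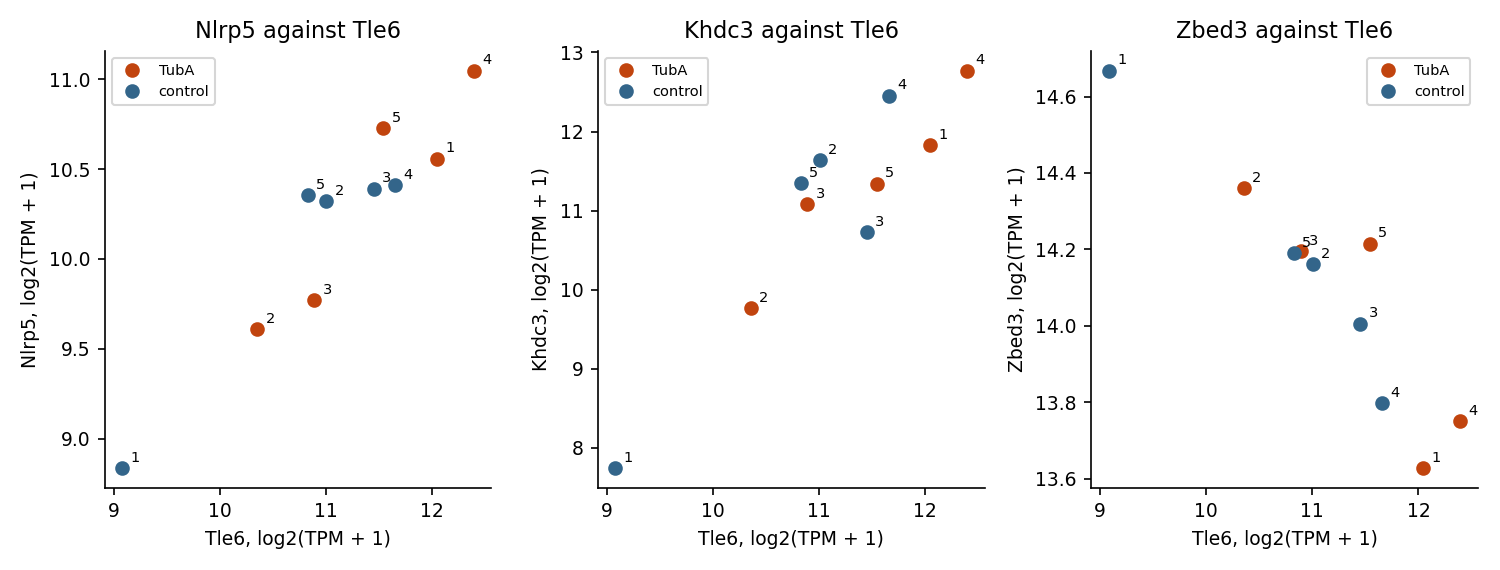
Nlrp5, Khdc3 and Zbed3 against Tle6, both axes in log2(TPM + 1), 1 point per library numbered by replicate. Nlrp5 and Khdc3 tend to be high where Tle6 is high (r 0.95 and 0.92), and Zbed3 tends to be low there (r -0.93). TubA and control points are interleaved along the Tle6 axis.

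The genes most like each member over the 10 libraries, among 5832 candidates that averaged 10 TPM or more, were ranked by Pearson's r. Klhdc3 (r 0.99), Puf60 (0.98) and Mtfr1l (0.98) were nearest to Khdc3. Ap1m1 (0.98), Josd1 (0.96) and Isca1 (0.96) were nearest to Tle6, and Igbp1 (0.97), Mtmr14 (0.96) and Anapc5 (0.96) to Nlrp5. Fbxw26 (0.99), Fbxw21 (0.98) and Vdac3 (0.97) were nearest to Padi6. Rhebl1 (0.95), Pdzd2 (0.94) and Ntpcr (0.94) were nearest to Ooep, and Ttc6 (0.96), Myo9b (0.92) and Yap1 (0.92) to Zbed3. As the highest of 5832 correlations per member over 10 points, these values are a ranking and no more.

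Partners and relatives of the complex showed no called difference either. None of the 9 partner and lattice genes tested passed the threshold or had an unadjusted p under 0.05, and their median log2 difference was 0.05, beside 0.01 for all genes tested. Without TubA replicate 4 that median was -0.05, beside -0.025 for all genes tested. Without control replicate 1 it was also -0.05, beside -0.041 for all genes tested. Ube2d3, a ubiquitin-conjugating enzyme, averaged 3694 ± 209.6 TPM with TubA and 3816 ± 414 TPM in control (log2 difference -0.04). Zar1, an RNA-binding maternal effect gene, averaged 2730.0 ± 683 TPM with TubA and 2497 ± 684 TPM in control (0.14). Nlrp2, a second NLR family protein, averaged 115 ± 31.2 TPM with TubA and 79.4 ± 32.1 TPM in control (0.57, unadjusted p = 0.055 by limma). Nlrp14, named after its values were seen, had an r of 0.88 with Tle6 and -0.83 with Zbed3.

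Of the 4 KH-domain relatives, 0 passed. Khdc1b averaged 2796 ± 538 TPM with TubA and 2520.3 ± 243 TPM in control, and Dppa5a 142 ± 131 TPM with TubA and 122 ± 74.7 TPM in control. Khdc1c averaged 21.1 ± 18.0 TPM with TubA and 39.5 ± 15.6 TPM in control (log2 difference -1.39, limma unadjusted p = 0.053). Of the 4, Dppa5a had the largest r with Khdc3, 0.96, beside 0.69 for Khdc1a, 0.29 for Khdc1c and 0.27 for Khdc1b. With Zbed3 r was -0.86 for Dppa5a, -0.64 for Khdc1a, -0.57 for Khdc1b and 0.01 for Khdc1c. The relatives of Padi6, Tle6 and Zbed3 on the lists were low: Padi1 to Padi4 summed to 2.56 to 6.00 TPM with TubA and 1.75 to 4.45 TPM in control. Of those, Padi2 and Padi4 were tested and neither passed (log2 differences 0.40 for Padi2 and -0.0035 for Padi4). Among 3 TLE relatives tested of 5, Aes averaged 24.03 ± 9.56 TPM with TubA and 25.1 ± 10.7 TPM in control, Tle4 13.9 ± 1.80 TPM with TubA and 12.2 ± 3.72 TPM in control, and none passed. Zbed5 averaged 12.9 ± 5.66 TPM with TubA and 14.5 ± 5.04 TPM in control, Zbed4 3.34 ± 0.593 TPM with TubA and 3.14 ± 0.639 TPM in control, and neither passed.

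Of 7 transcription factors known to regulate oocyte genes in mice, 6 were tested, with 0 called and a median log2 difference of 0.41, which was 0.08 without TubA replicate 4, 0.22 without control replicate 1 and -0.01 without both. TubA replicate 4 had 399 TPM of Lhx8 (97.2 to 147 TPM in the other TubA libraries) and 296 TPM of Nobox (91.6 to 153 TPM). Lhx8 averaged 175 ± 126 TPM with TubA and 117 ± 26.2 TPM in control. Nobox averaged 147 ± 86.7 TPM with TubA and 100.1 ± 26.9 TPM in control, and Sohlh2 31.4 ± 17.4 TPM with TubA and 17.2 ± 4.70 TPM in control. Of 16 maternal effect genes outside the complex, 0 passed and the median was -0.02. Btg4, an adaptor of the deadenylase that clears maternal RNA, averaged 9972 ± 2371 TPM with TubA and 10332 ± 2156 TPM in control. Its r was 0.90 with Zbed3 and -0.87 with Tle6, each the largest in size among the 16 genes. For the other genes of this list r with Zbed3 ran between -0.79 for Ube2a and 0.74 for Tet3. With Tle6 it ran between -0.80 for Tet3 and 0.82 for Smarca4. Npm2, the egg histone chaperone, averaged 1929 ± 1852 TPM with TubA and 1924 ± 1153 TPM in control, and Trim28, a corepressor, averaged 121 ± 64.4 TPM with TubA and 149 ± 46.8 TPM in control.

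The zona pellucida genes, which encode the egg coat, varied between libraries along with Khdc3. Zp2 had 3125, 206, 427, 4518 and 1456 TPM with TubA, against 93.1, 2706, 1482, 3256 and 2239.6 TPM in control. Its r was 0.92 with Khdc3 and -0.85 with Zbed3. For Zp1 and Zp3 r with Khdc3 was 0.91 and 0.91, while for H1foo, the oocyte linker histone, it was -0.40. Zp1, Zp2 and Zp3 were named for this after their values were seen.

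The files listed 31 transcripts of the 6 genes, and 22 averaged 1 TPM or more. Across all transcripts limma called 1 of 21838 at an adjusted p under 0.05, which is 0.00458%, and no transcript of a member. The smallest unadjusted p of a member's transcript was 0.086, for Nlrp5-202. The share of a main transcript's 31-base words that also occur in another transcript of the same gene was 100% for Nlrp5-201, 98.7% for Tle6-201, 97.7% for Khdc3-204, 91.7% for Zbed3-202 and 28.1% for Padi6-201. Ooep has 1 listed transcript. For Nlrp5, Tle6, Khdc3 and Zbed3 the split between transcripts thus rests largely on the estimation that made the values.

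Nlrp5 was carried by Nlrp5-201 (ENSMUST00000015866, 16 exons), with 86.2% ± 3.62 of the gene's TPM with TubA and 87.1% ± 10.8 in control. Nlrp5-202, which starts 12 bases earlier and has 15 exons, had 214, 125, 77.8, 166 and 151 TPM with TubA, against 19.4, 83.0, 182, 91.7 and 76.2 TPM in control. Nlrp5-203, which starts downstream, had 227 TPM in control replicate 3 and at most 13.2 TPM elsewhere, so that Nlrp5-201 held 67.7% of the gene in that library. The TubA minus control difference in that share was -0.89 points (two-sided exact permutation p = 0.90). Control replicate 3 lay below every TubA library (81.4% to 89.1%), and the other controls (91.5% to 92.5%) lay above every one. Leaving it out thus separates the groups by itself, with a difference of -5.73 points. The two-sided exact permutation p is then 0.016. It comes from 1 of 10 leave-outs run for each of 5 genes, so it is no evidence of a difference. A retained intron, Nlrp5-206, averaged 29.6 ± 15.8 TPM with TubA and 19.9 ± 3.42 TPM in control.

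Tle6 was the most divided of the 6. The full-length coding transcript Tle6-201 (ENSMUST00000072020, 14 exons) held 53.4% ± 2.52 with TubA and 55.2% ± 3.38 in control. Tle6-212, a short noncoding form of 623 bases whose sequence lies wholly within other Tle6 transcripts, averaged 769 ± 421 TPM with TubA and 457 ± 259 TPM in control (log2 difference 0.82, SE 0.53). Tle6-210, coding, averaged 418 ± 205 TPM with TubA and 287 ± 139 TPM in control. Tle6-206, noncoding, averaged 188 ± 124 TPM with TubA and 137 ± 87.2 TPM in control. Tle6-204, also noncoding, had 7.87, 0.448, 94.3, 283 and 123 TPM with TubA, against 0, 11.1, 31.1, 32.3 and 186 TPM in control. The remaining 4 named forms, Tle6-203, Tle6-209, Tle6-214 and Tle6-211, reached at most 5.52 TPM, 3 more had a lower mean and 2 were listed at 0 throughout.

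Khdc3-204 (ENSMUST00000173734, 4 exons) held 95.2% ± 3.46 of Khdc3 with TubA and 94.1% ± 2.23 in control. Khdc3-201, which has 3 exons, had 173, 16.9, 75.9, 748 and 75.6 TPM with TubA, against 8.41, 244, 133, 385 and 82.7 TPM in control, and was thus lowest and highest in the same libraries as the gene. Khdc3-203 reached at most 2.59 TPM, and 1 form was listed at 0. Of the 31-base words of Khdc3-204, 61.4% also occur in Gm20509, an annotated protein-coding gene on the same strand that shares 790 exon bases with it. Gm20509 averaged 3.41 TPM and reached at most 6.77 TPM, beside at least 214 TPM of Khdc3 in every library. For Nlrp5 the pseudogene Nlrp5-ps shared 13.8% of words and averaged 0.045 TPM, and for Tle6 Gm9136 shared 3.32% and was listed at 0.

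Padi6-201 (ENSMUST00000038749, 16 exons) held 99.4% ± 0.660 of Padi6 with TubA and 99.7% ± 0.254 in control, so that the 7295 TPM of TubA replicate 4 were 7284 TPM of this form. Padi6-203 averaged 8.45 ± 8.24 TPM with TubA and 3.65 ± 3.38 TPM in control. Zbed3-202 (ENSMUST00000221807, 2 exons) held 89.4% ± 1.40 of Zbed3 with TubA and 90.4% ± 2.16 in control. Zbed3-201, from a downstream start, averaged 1603 ± 688 TPM with TubA and 1676 ± 546 TPM in control. Zbed3-203 had 676, 132, 74.3, 77.0 and 126 TPM with TubA, against 94.6, 99.3, 120.5, 205 and 104 TPM in control, so TubA replicate 1 was far above the other 9 libraries. Over the 5 genes with more than 1 transcript, the share of the main transcript did not pass the two-sided exact permutation test (adjusted p between 0.67 and 0.90).

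**Figure D5:**
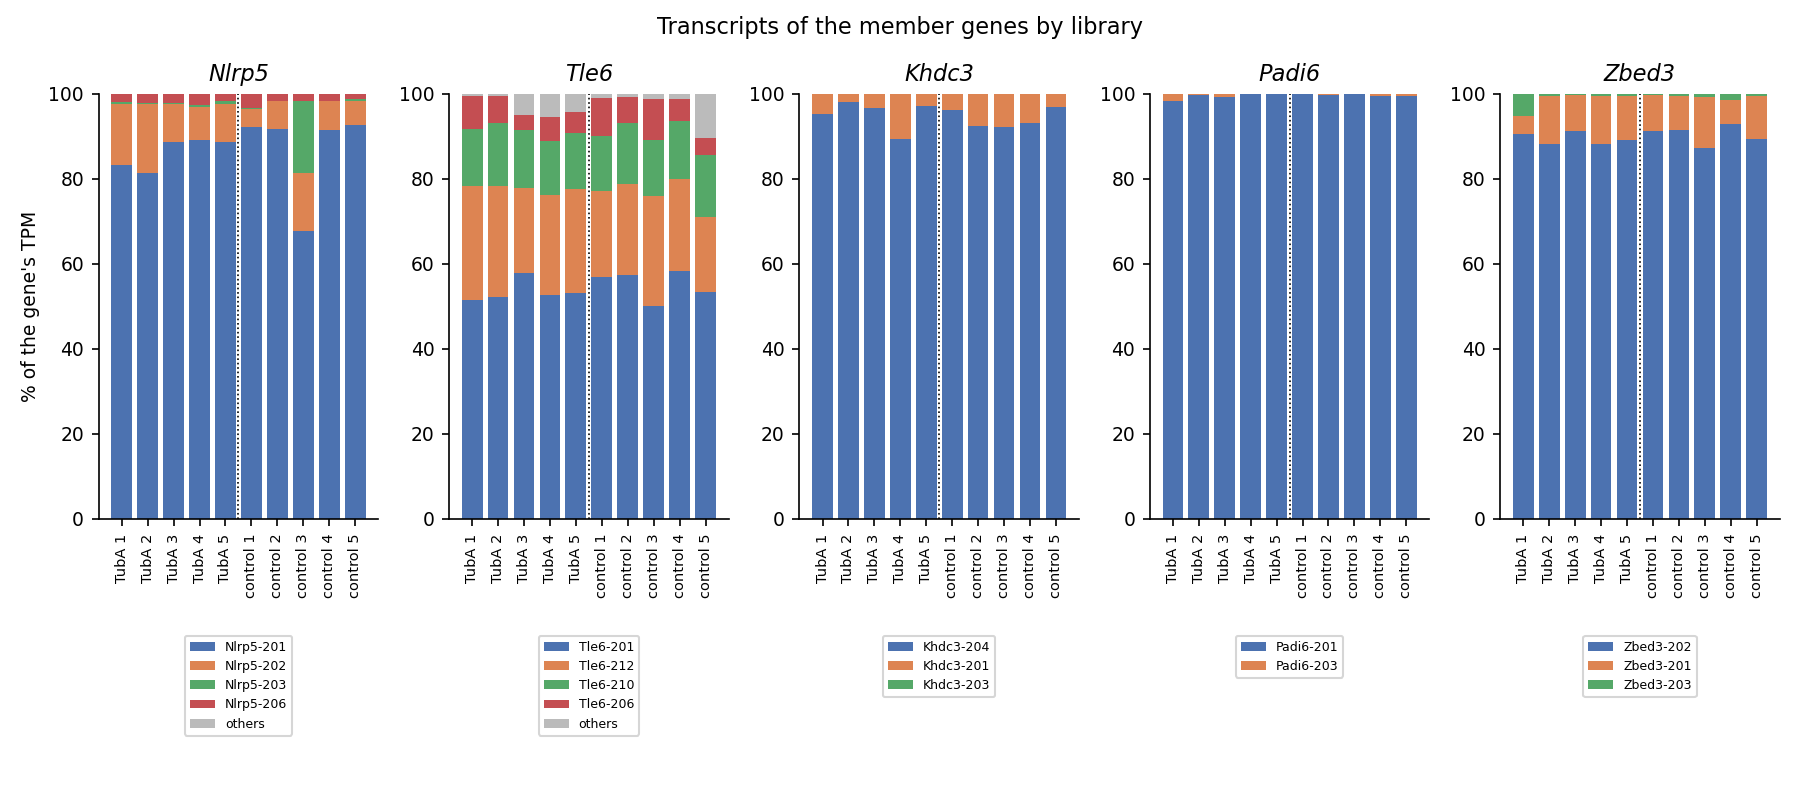
Percent of each gene's TPM held by its transcripts in each library, TubA libraries left of the dotted line and control libraries right of it, for the 5 genes with more than 1 transcript. The main transcript holds 67.7% to 92.5% of Nlrp5, 50.1% to 58.2% of Tle6 and over 87.2% of Zbed3, and the low bar of Nlrp5 is control replicate 3.

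Promoters are shown for Tle6 and Khdc3, which tended to be high in the same libraries, and for Zbed3, which tended to be low there. Each spans 300 bases at the start nearest to the main transcript, from RefSeq (GRCm38.p6). The span runs from 250 before the annotated start to 50 from it on. Capitals mark the E-box CANNTG, a motif that the oocyte factor FIGLA is known to bind with a partner in mice. It reads the same on both strands, and matches may overlap.
Tle6, chr10:81600851-81601150 (-): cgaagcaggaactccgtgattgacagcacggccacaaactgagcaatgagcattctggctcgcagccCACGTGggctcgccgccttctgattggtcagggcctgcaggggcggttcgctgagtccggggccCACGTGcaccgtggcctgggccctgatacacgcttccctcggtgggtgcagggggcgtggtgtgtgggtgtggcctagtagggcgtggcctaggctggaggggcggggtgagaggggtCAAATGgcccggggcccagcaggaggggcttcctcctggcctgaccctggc
Khdc3, chr9:73102148-73102447 (+): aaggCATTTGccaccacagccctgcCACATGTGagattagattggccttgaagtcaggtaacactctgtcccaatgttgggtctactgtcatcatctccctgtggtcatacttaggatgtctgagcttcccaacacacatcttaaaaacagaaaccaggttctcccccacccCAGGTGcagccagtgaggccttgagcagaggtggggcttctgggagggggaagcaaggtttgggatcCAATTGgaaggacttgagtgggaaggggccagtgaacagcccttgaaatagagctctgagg
Zbed3, chr13:95323355-95323654 (+): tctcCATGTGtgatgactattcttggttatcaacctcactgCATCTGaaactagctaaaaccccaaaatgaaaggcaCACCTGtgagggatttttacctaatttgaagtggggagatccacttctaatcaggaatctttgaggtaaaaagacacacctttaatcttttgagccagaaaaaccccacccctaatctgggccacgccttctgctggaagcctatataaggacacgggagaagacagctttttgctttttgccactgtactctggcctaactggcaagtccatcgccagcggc
Khdc3 held 5 matches, 2 of them overlapping, Tle6 and Zbed3 held 3 each, Nlrp5 and Padi6 held 2 each, and Ooep held 1. Of 32544 promoters of this length 72.3% held at least 1 match, 17.6% at least 3 and 6.48% at least 4. TAATTG on either strand, a motif of the homeobox factor NOBOX, occurred once in Ooep and once in Padi6, and in 8.01% of all promoters. At other RefSeq starts, a second window of Tle6 held 4 E-box matches, a second of Nlrp5 held 2, and the 2 others of Zbed3 held 1 each. The part of these motifs in the levels was not tested.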

How the data were processed

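The values are TPM as deposited by the authors, 1 value per Ensembl transcript and library, and each library sums to 1000000. The submitters' processing notes name build mm10 and Bowtie 0.12.2. Strandedness, the annotation release and the abundance program are not stated there or in the labels. TPM keeps no depth, so no counting interval is given.

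Transcripts were summed to genes with GENCODE M21 (GRCm38, the assembly of mm10). Of them 113492 matched and 1778 did not, which held 0.531% to 0.753% of TPM and were left out. TubA was compared with control by limma 3.58.1 (R 4.3.3; trend, robust) on log2(TPM + 1), for the 11664 genes, and separately the 21838 transcripts, whose mean over 10 libraries reached 1 TPM, with Benjamini-Hochberg adjustment at 0.05. The fit was tested on simulated data. Differences are TubA minus control on that scale, which understates changes of low genes. Main transcript shares were compared with a two-sided exact permutation test. Correlations are descriptions.

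Named were all 6 members, their transcripts with a mean of at least 1 TPM, the 3 genes most like each, and of each list other than the markers any gene that passed, or else its 2 most abundant genes and the 1 of smallest p. Predicted loci and pseudogenes were left out of the likeness ranking. The members and lists were chosen with earlier results of these data known. Words of 31 bases measured shared sequence. Python 3.11.15, pandas 2.3.3, numpy 2.4.6 and matplotlib 3.10.9 were used. TMM scaling was not run because it needs counts, and no count model was used. The labels do not say whether replicate numbers pair the libraries, and the main fit did not pair them. The correlation of same-numbered libraries' deviations lay between -0.31 and 0.48. Same-numbered libraries fell in the same set for replicates 1, 2, 4 and 5, but not for replicate 3.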

Additional observations from a re-analysis of the deposited data

Results flagged for a closer look

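Of 66 sets of 5 libraries tested (member genes, their transcripts and main transcript shares, each within a group), 12 had a library far from the other 4, with a gap over 0.71 of the range. Chance flags about 1 in 20 such sets if values are normally distributed. That rate need not hold for TPM without a log, and the sets are not independent. Within TubA, replicate 4 stood apart for Padi6 (7295 TPM, against 719 to 1271 in the other TubA libraries) and its transcript Padi6-201 (7284 TPM, against 717 to 1249). The same library stood apart for Khdc3-201 (748 TPM, against 16.9 to 173) and for Nlrp5-206 (56.4 TPM, against 17.4 to 28.2). TubA replicate 1 stood apart for Zbed3-203 (676 TPM, against 74.3 to 132) and Tle6-209 (5.52 TPM, against 0 to 1.41). In TubA replicate 3 the main transcript held 57.8% of Tle6, against 51.5% to 53.1% in the other TubA libraries.

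Within control, replicate 1 stood apart for Nlrp5 (457 TPM, against 1278 to 1361 in the other controls). Control replicate 3 stood apart for Nlrp5-203 (227 TPM, against 1.03 to 3.84) and for the share of the main transcript of Nlrp5 (67.7%, against 91.5% to 92.5%). Control replicate 4 stood apart for Zbed3-203 (205 TPM, against 94.6 to 120.5) and control replicate 5 for Tle6-204 (186 TPM, against 0 to 32.3).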

How the results depend on the processing

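No member passed the threshold under any of the 23 alternatives run for each gene (lowest adjusted p 0.94, limma), and 124 of 138 values kept their sign. Changing the filter on low values or adding the replicate block cannot move an estimate here, so those alternatives kept the sign by design. The same holds for the main transcript of Ooep, its only one. Khdc3 turned to -0.13 with library weights and to -0.17 in set B alone, and Zbed3 to 0.060 in set B alone. With 1 library left out in turn, differences ran between -0.027 and 0.46 for Nlrp5, -0.16 and 0.051 for Ooep, 0.21 and 0.91 for Tle6, -0.18 and 0.99 for Khdc3, -0.13 and 0.70 for Padi6, and -0.23 and -0.01 for Zbed3. With control replicate 1 and TubA replicate 4 both left out, an alternative chosen after seeing the data, they were -0.20 for Nlrp5, -0.22 for Ooep, -0.026 for Tle6, -0.54 for Khdc3, -0.33 for Padi6 and 0.061 for Zbed3. The median over all genes tested was -0.072 in that setting. The cause of these changes was not tested.

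The count of genes called, 1, was 0 with a pseudocount of 10, a filter at a mean of 10 TPM, the replicate block or set B alone, and 12 in set A alone. Without 1 library in turn it was 1 in each case. The count of transcripts, 1, was 0 in those same 4 settings and with both libraries left out, 25 in set A alone, and 0 to 2 with 1 library left out. Whether the replicate numbers mark pairs was not settled: 2 of 5 TubA libraries correlated best with their own number. With the replicate block the standard error fell from 0.54 to 0.38 for Padi6. It also fell for Nlrp5, Ooep, Tle6 and Khdc3, and rose from 0.19 to 0.20 for Zbed3. The difference in main transcript share of Nlrp5 was -5.73 to 0.47 points with 1 library left out, and 0.32, 0.34, 0.26 and 0.20 points in the other reversals. Shares and limma intervals rest on 5 libraries a group of unknown depth.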
